A study of Mus musculus with 12 samples.

Results

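The transcription factors described here are Phox2a, Hand2, Gata2, Gata3, Isl1, Tbx2, Insm1 and Sox11, 8 of the 32289 features counted in single cells of the superior mesenteric ganglia (SMG) of mice. They were chosen by name as factors of the adrenergic core regulatory circuit, and all 8 had UMIs (unique molecular identifiers, each standing for 1 captured mRNA molecule) in the libraries. The SMG came from 10 3-week-old Th-MYCN+/- mice (#1 to #10), which are called the 3-week hemizygotes from here on, 1 3-week-old wild-type (WT) mouse without the transgene and 1 6-week-old Th-MYCN+/- mouse, all of the strain 129+Ter/SvJcl and each giving 1 library. In Th-MYCN+/- mice, hemizygotes for the transgene, the tyrosine hydroxylase (Th) promoter drives human MYCN in cells of the sympathetic lineage, and neuroblastoma arises from the SMG. The 6-week-old mouse was picked by the study for its macroscopic tumor, so that it stands for tumor-bearing mice only, and age and tumor cannot be told apart in it.

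Sympathetic neurons and chromaffin cells descend from the neural crest and acquire the noradrenergic state through a small set of transcription factors that bind the regulatory DNA of each other and of genes for catecholamine synthesis. Neuroblasts are the immature, dividing cells of this lineage, and neuroblastoma cells that keep such a set active are called adrenergic. Phox2a (a homeodomain factor), Hand2 (a basic helix-loop-helix factor) and the zinc finger factors Gata2 and Gata3 are known for the noradrenergic programme of sympathetic neurons, Isl1 is a LIM homeodomain factor of sympathetic and sensory neurons, Tbx2 is a T-box repressor, and Insm1 and Sox11 are known from neuroendocrine progenitors and from immature neurons.

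In all, 12034 cells were kept from 16180 barcodes called as cells, in libraries of 1147771 to 6388765 UMIs. Cells were grouped into classes by marker genes that included none of the 8 factors, which were also left out of the clustering: 5241 neuroblast-like, 2756 ganglion-like (sympathetic neuron markers) and 2885 Schwann-like cells, 242 macrophage-like and 43 NKT-like cells, 531 endothelial-like, 141 fibroblast-like and 168 myofibroblast-like cells, and 27 cells without a name. Of the 21 neuroblast markers, all were found in the neuroblast-like cells of the 3-week hemizygotes and their summed level was 18058 to 27808 CPM per mouse, against 3546 to 8070 CPM in ganglion-like cells. CPM stands for UMIs of a gene per 1000000 UMIs, over all cells of a class in 1 mouse. The library of mouse #2 stood apart, with 38.9% of its UMIs in cells and 1515 of all 2756 ganglion-like cells but 6 Schwann-like ones, so that it was left out wherever a class had under 10 cells. Between 0 and 6 cell barcodes were shared by any pair of libraries.

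On GRCm38, whose coordinates come from the GENCODE annotation and not from the count files, the genes lie on 7 chromosomes: Gata3 at chr2:9857078-9890034, Insm1 at chr2:146221921-146225020, Gata2 at chr6:88193891-88207032, Phox2a at chr7:101818313-101822726, Hand2 at chr8:57320983-57324633, Tbx2 at chr11:85832551-85841948, Sox11 at chr12:27334264-27342574 and Isl1 at chr13:116298281-116309689. All 8 are annotated as protein-coding.

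The 4 promoters shown are those of Phox2a and Hand2, which were lower in neuroblast-like than in ganglion-like cells, and of Isl1 and Sox11, which were higher. They are RefSeq windows of GRCm38.p6, from 250 bases before to 50 after a start site, written 5′ to 3′ on the strand of the gene, at chr7:101818063-101818362 (Phox2a), chr8:57320733-57321032 (Hand2), chr13:116309639-116309938 (Isl1, minus strand) and chr12:27342669-27342968 (Sox11, minus strand). Capitals mark the E box CANNTG, which basic helix-loop-helix factors such as Hand2 bind with a partner, and the letters GATA with T or A before them and A or G after them, which GATA factors bind, both searched on either strand.
Phox2a: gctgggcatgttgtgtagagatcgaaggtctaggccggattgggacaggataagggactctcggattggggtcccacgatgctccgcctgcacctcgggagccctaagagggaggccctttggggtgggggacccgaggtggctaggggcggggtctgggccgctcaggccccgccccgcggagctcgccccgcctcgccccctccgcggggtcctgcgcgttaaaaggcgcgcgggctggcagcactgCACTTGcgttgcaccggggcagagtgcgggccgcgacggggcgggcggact
Hand2: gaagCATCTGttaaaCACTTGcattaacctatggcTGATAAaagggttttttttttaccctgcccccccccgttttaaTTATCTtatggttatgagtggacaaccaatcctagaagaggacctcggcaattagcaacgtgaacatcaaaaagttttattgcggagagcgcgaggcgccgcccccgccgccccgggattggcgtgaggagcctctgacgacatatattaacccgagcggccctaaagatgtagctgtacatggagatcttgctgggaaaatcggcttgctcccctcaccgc
Isl1: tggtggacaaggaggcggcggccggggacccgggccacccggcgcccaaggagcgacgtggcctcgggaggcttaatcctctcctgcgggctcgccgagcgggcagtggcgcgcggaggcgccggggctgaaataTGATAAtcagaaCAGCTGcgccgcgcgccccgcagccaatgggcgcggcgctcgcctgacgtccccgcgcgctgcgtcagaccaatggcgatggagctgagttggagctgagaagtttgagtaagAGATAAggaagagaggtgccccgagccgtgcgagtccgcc
Sox11: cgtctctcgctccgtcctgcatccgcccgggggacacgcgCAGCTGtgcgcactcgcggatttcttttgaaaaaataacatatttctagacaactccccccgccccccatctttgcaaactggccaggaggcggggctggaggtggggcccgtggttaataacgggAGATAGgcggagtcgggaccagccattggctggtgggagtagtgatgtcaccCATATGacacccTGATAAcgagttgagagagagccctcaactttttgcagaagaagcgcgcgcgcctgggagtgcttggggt

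The window of Phox2a held 1 E box and none of the GATA letters, while those of Hand2 and Sox11 held 2 E boxes and 2 GATA matches each, and that of Isl1 held 1 E box and 2 GATA matches. E boxes were found in 72.3% of the 32851 promoter windows of the same length and the GATA letters in 29.8%. The E box CACGTG, the form that MYCN prefers, which is itself a CANNTG, occurred in 7.15% of all windows and in none of the 7 windows of the factors. The homeodomain letters TAATTA occurred in 5.29% of all windows and, among those of the factors, in that of Hand2, where they overlapped a GATA match. Windows were found for 6 of the 8 factors, Gata2 having 2 of them; Tbx2 and Insm1 are named only.

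All 8 factors had UMIs in neuroblast-like cells of every 3-week hemizygote, with Isl1 at the highest level and Tbx2 at the lowest, the latter near its level in empty droplets as given below. Since UMIs count molecules by their 3′ ends, levels of different genes were compared without dividing by length. Isl1 had 982 CPM ± 174 (SD, n = 10 mice), with 599.7 CPM in the lowest mouse, a median of 976 and 1240 CPM in the highest. Phox2a (362 CPM ± 98.6) and Sox11 (259 CPM ± 77.1) followed. Hand2 (169 CPM ± 32.8), Gata2 (157 CPM ± 37.5), Gata3 (110.0 CPM ± 44.6) and Insm1 (110.0 CPM ± 100.3) came next, and Tbx2 had 34.2 CPM ± 13.2.

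Neighbours in this order were compared within mice on the log2 scale by an exact two-sided sign-flip permutation test, adjusted over the 14 pairs of neighbours in the neuroblast-like and ganglion-like classes. Isl1 exceeded Phox2a in 10 of 10 mice (exact permutation test, adjusted p = 0.0055) and Phox2a exceeded Sox11 in 9 of 10 (exact permutation test, adjusted p = 0.021). The levels of Sox11 and Hand2 (exact permutation test, adjusted p = 0.065), of Hand2 and Gata2 (0.38), and of Gata3 and Insm1 (0.45) did not differ beyond their spread. Gata2 exceeded Gata3 in 9 mice (exact permutation test, adjusted p = 0.0091), and Insm1 exceeded Tbx2 in all 10 (0.0055).

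Ganglion-like cells had another order. Hand2 (603 CPM ± 227, n = 10) and Phox2a (560 CPM ± 160) led and did not differ beyond their spread (exact permutation test, adjusted p = 0.695). Isl1 (368 CPM ± 76.3), Gata2 (224 CPM ± 26.7) and Gata3 (68.0 CPM ± 25.6) followed in this order. Sox11 (35.2 CPM ± 23.4) and Tbx2 (22.9 CPM ± 8.62) did not differ beyond their spread (exact permutation test, adjusted p = 0.065). Insm1 had 10 UMIs over all 10 mice, 2.35 CPM on average, and was at 0 in 4 of them. The other neighbours in this order differed, with adjusted p = 0.030 or below by the same exact permutation test.

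**Figure D1:**
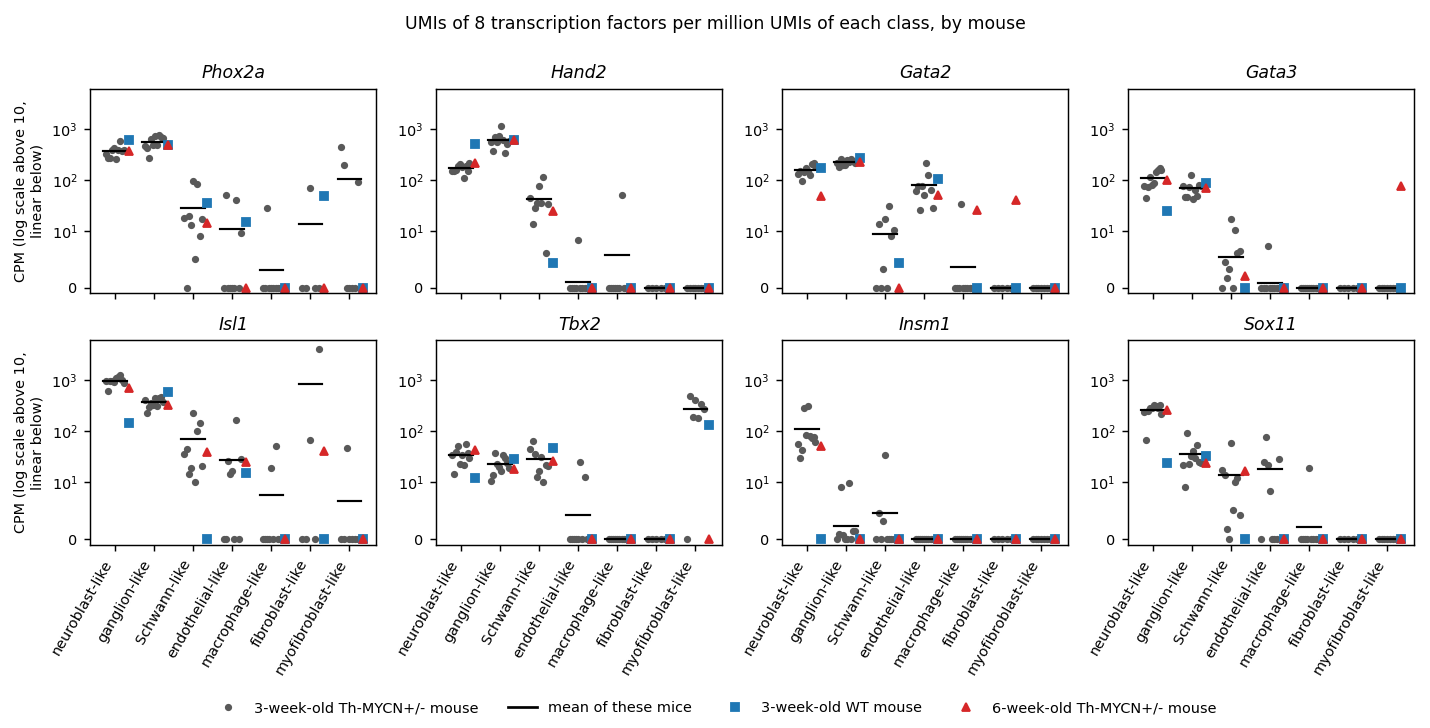
Level of each factor (CPM, on an axis that is logarithmic above 10 and linear below) in 7 classes of cells, with 1 grey point per 3-week hemizygote with at least 10 cells of the class, a black bar at their mean, a blue square for the WT and a red triangle for the 6-week-old mouse. Isl1, Sox11, Insm1 and Gata3 had their highest class mean in neuroblast-like cells, Hand2, Phox2a and Gata2 in ganglion-like cells and Tbx2 in myofibroblast-like cells, and the fibroblast-like mean of Isl1 rests on 1 cell.

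All 8 factors passed the filter on low counts and differed between both sympathetic classes within mice, 5 being higher in neuroblast-like cells and 3 lower. Counts were summed per mouse and class and tested by edgeR's quasi-likelihood test with the mouse as a block and Benjamini-Hochberg adjustment over all genes tested. Against this stands a background of 68.7% of the 7838 genes tested (35.2% higher and 33.5% lower), so that a call by itself was the usual outcome here and the sizes and directions carry the description. The median log2 fold change was 0.61 over the 8 factors and 0.05 over all genes tested.

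Insm1 differed most. It lay between 29.3 and 315 CPM in neuroblast-like cells, with a median of 76.0, and between 0 and 9.79 CPM in ganglion-like cells. The groups did not overlap and every one of the 10 mice had the higher level in neuroblast-like cells. The log2 fold change was 6.28 (SE 0.43, edgeR adjusted p = 9.5e-11), on few UMIs in ganglion-like cells.

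Sox11 was at 65.8 to 332 CPM (median 283) in neuroblast-like cells and at 9.25 to 92.1 CPM (median 27.4) in ganglion-like cells. Mouse #2 alone made the ranges overlap, and the direction was the same in 10 of 10 mice. Its log2 fold change was 3.07 (SE 0.19, edgeR adjusted p = 2.6e-11), and 3.15 without mouse #2. Isl1 ranged from 599.7 to 1240 CPM in neuroblast-like cells and from 228 to 469 CPM in ganglion-like cells. Again the groups did not overlap, and the log2 fold change was 1.40 (SE 0.10, edgeR adjusted p = 2.6e-10).

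Hand2 had the opposite direction. Its levels in neuroblast-like cells ran from 110 to 218 CPM (median 167) and in ganglion-like cells from 333 to 1147 CPM (median 558). The ranges did not overlap, and the log2 fold change was −1.79 (SE 0.15, edgeR adjusted p = 2.7e-09). Phox2a was also lower in neuroblast-like cells of all 10 mice, with 253 to 587 CPM against 267 to 758 CPM and a log2 fold change of −0.64 (SE 0.13, edgeR adjusted p = 2.7e-04). The same held for Gata2, at 93.8 to 218 CPM against 178 to 258 CPM, with a log2 fold change of −0.52 (SE 0.13, edgeR adjusted p = 0.0018). For Phox2a and Gata2 the ranges over mice overlapped, and both calls were lost when the RNA of empty droplets was subtracted (Phox2a −0.52, edgeR adjusted p = 0.073; Gata2 −0.48, adjusted p = 0.052). That of Gata2 was also lost without the filter on low counts (−0.39, edgeR adjusted p = 0.069).

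Gata3 and Tbx2 showed the smallest shifts toward neuroblast-like cells. Gata3 was higher there in 7 of 10 mice, at 43.9 to 174 CPM against 41.6 to 127 CPM, with a log2 fold change of 0.64 (SE 0.20, edgeR adjusted p = 0.0080). Tbx2 was higher in 9 of 10 mice, at 14.6 to 57.3 CPM against 10.7 to 36.8 CPM, with a log2 fold change of 0.59 (SE 0.21, edgeR adjusted p = 0.020). Without mouse #4 the call for Tbx2 was lost (0.49, edgeR adjusted p = 0.078). Thus the closely related Gata2 and Gata3, which recognise the same GATA letters, differed in opposite directions between these classes in the main test. The call for Gata2, however, was lost on subtraction of free RNA and without the filter on low counts, as given above. Gata3 was lower in neuroblast-like cells of 3 of 10 mice, and the ranges of both factors overlapped. The transgene, which divides the classes in these mice, had a log2 fold change of 6.80 (309 CPM against 2.29 CPM). Without mouse #2, all 8 calls kept their direction and passed the test, with log2 fold changes from −1.75 (Hand2) to 6.54 (Insm1).

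**Figure D2:**
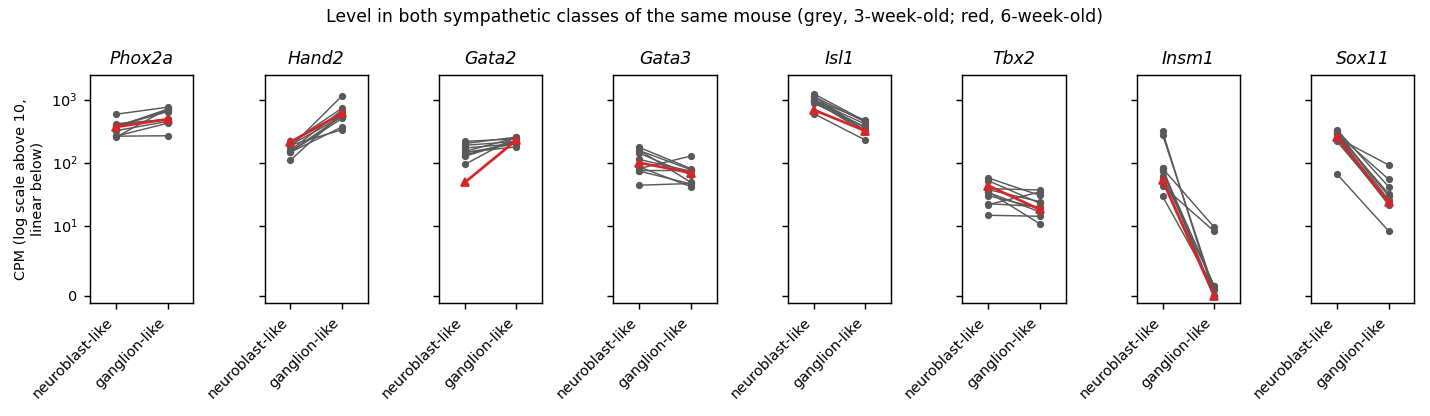
Level of each factor (CPM, on an axis that is logarithmic above 10 and linear below) in neuroblast-like and ganglion-like cells, with 1 grey line joining both classes of each of the 10 3-week hemizygotes and a red line for the 6-week-old mouse. All 10 grey lines fall toward ganglion-like cells for Insm1, Sox11 and Isl1 and rise for Hand2, Phox2a and Gata2.

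Further factors were described by 3 lists. Among 19 further sympathoadrenal and adrenergic factors, 15 passed the filter on low counts between neuroblast-like and ganglion-like cells, 7 were higher in neuroblast-like cells, 6 lower and 2 did not pass the test, against 35.2% higher and 33.5% lower of all genes tested, with a median log2 fold change of 0.27. Meis2, a homeodomain cofactor, had 6.32 (SE 0.39, edgeR adjusted p = 2.5e-11) and the zinc finger repressor Zfp536 had 3.83 (SE 0.30), while the homeodomain factor Hmx1 had −3.00 (SE 0.27) and Tbx3, the closest relative of Tbx2, had −2.65 (SE 0.25). Tbx2 and Tbx3 thus differed in opposite directions. For Tbx2, however, the ranges overlapped and the call did not survive leaving out each mouse in turn, as given above.

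Of 16 binding partners and inhibitors, 11 were tested, 8 were higher in neuroblast-like cells and 2 lower, against the same 35.2% and 33.5% of all genes, with a median log2 fold change of 1.37. Those with the greatest differences were Ldb2 (5.18, SE 0.34), whose family bridges LIM proteins such as Isl1 to other factors, the LIM-only proteins Lmo3 (3.65, SE 0.28) and Lmo4 (3.06, SE 0.28), and Id3 (−2.37, SE 0.25), which binds E proteins and keeps them from partners such as Hand2. All 3 E protein genes, Tcf3, Tcf4 and Tcf12, the usual partners of Hand2, were among the 8 that were higher. Of 9 paralogs of the 8 factors only Insm2 (1.98, SE 0.14) and Sox12 (1.06, SE 0.26) passed the filter on low counts, and both were higher in neuroblast-like cells. The remaining 7 paralogs, Gata1, Gata4, Gata5, Gata6, Isl2, Tbx4 and Tbx5, did not pass the filter.

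Schwann-like cells, the glia of the ganglion, gave the level at which the factors appeared without a sympathetic class. In 9 mice their means were 69.4 CPM for Isl1, 43.0 for Hand2, 28.6 for Phox2a, 28.5 for Tbx2, 13.8 for Sox11, 9.40 for Gata2, 5.48 for Gata3 and 4.63 for Insm1. Empty droplets of the 10 libraries, which hold free RNA, had median levels of 427 CPM for Isl1, 358 for Phox2a, 249 for Hand2, 121 for Gata2, 76.8 for Sox11, 39.5 for Gata3, 21.7 for Tbx2 and 21.4 for Insm1. Apart from Tbx2, all factors were thus lower in Schwann-like cells than in empty droplets, and these Schwann-like levels were read as background. Tbx2 was near its level in empty droplets in every one of the 3 large classes (34.2, 22.9 and 28.5 CPM).

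Of the 8 factors, 7 were higher in neuroblast-like than in Schwann-like cells, where 37% of the 6446 genes tested were higher. The log2 fold changes were 5.26 for Insm1, 4.64 for Sox11, 4.42 for Gata3, 4.20 for Gata2, 4.06 for Isl1, 3.89 for Phox2a and 2.07 for Hand2 (SE 0.26 to 0.46, edgeR adjusted p = 1.2e-06 or below). Tbx2 had a log2 fold change of 0.11 (SE 0.25, edgeR adjusted p = 0.704). In ganglion-like against Schwann-like cells, 4 factors passed the filter and all 4 were higher, against 39.3% of the 3388 genes tested. Their log2 fold changes were 4.83 for Gata2, 4.73 for Phox2a, 4.03 for Hand2 and 2.86 for Isl1 (SE 0.28 to 0.35, edgeR adjusted p = 6.3e-07 or below).

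Without the filter, where 20.6% of 17728 genes were higher, Gata3 (4.03, SE 0.39) and Sox11 (1.93, SE 0.37) were higher in ganglion-like than in Schwann-like cells too, whereas Tbx2 had −0.12 and Insm1 −0.03. Sox11 (35.2 CPM) and Insm1 (2.35 CPM) in ganglion-like cells lay below their medians in empty droplets. So did Isl1 in ganglion-like cells (368 CPM) and Hand2 in neuroblast-like cells (169 CPM). After the RNA of empty droplets was subtracted from each sum, Isl1 had 5.91 in ganglion-like against Schwann-like cells (edgeR adjusted p = 1.7e-05). Hand2 had 6.90 in neuroblast-like against Schwann-like cells (edgeR adjusted p = 2.0e-08). Before subtraction these log2 fold changes were 2.86 and 2.07. In Schwann-like sums, however, all ganglion markers were taken as free RNA and values below 0 were set to 0. Genes expressed along with these markers are largely removed there by construction, so these 2 fold changes cannot decide whether the levels exceed free RNA. The share of free RNA in both sympathetic classes was estimated as if all their Schwann markers were free. It was 3.65% to 24.5% of the UMIs of neuroblast-like cells and 13.7% to 72.0% of those of ganglion-like cells.

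In vascular cells none of the 8 factors passed the filter on low counts, and Gata2 and Tbx2 are given for their UMIs there. Gata2, which is known from endothelium and blood, had 49 UMIs in 42 of 433 endothelial-like cells of the 3-week hemizygotes, in 9 of 10 mice, and 25.8 to 211 CPM per mouse with a median of 62.9. This median is below that of Gata2 in empty droplets (121 CPM), and mouse #6, the highest, had an estimated share of free RNA of 0.63 in these cells, whose part in the level was not tested. Isl1, at 427 CPM in empty droplets, had 12 UMIs in the same cells. Without the filter the log2 fold change of Gata2 against Schwann-like cells was 3.05 (SE 0.47, edgeR adjusted p = 2.0e-09), where 8.51% of 15924 genes were higher. All 7 other factors had 0 to 12 UMIs each in the 9 mice with at least 10 endothelial-like cells. Tbx2 had 27 UMIs in 23 of 123 myofibroblast-like cells, which carry markers of vascular mural cells such as Rgs5 and Acta2, in 7 of 9 mice. Its level over 7 mice was 269.5 CPM ± 163, above that in either sympathetic class, and its log2 fold change against Schwann-like cells was 2.26 (SE 0.48, edgeR adjusted p = 5.9e-05), where 2.54% of 15017 genes were higher without the filter.

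Elsewhere few UMIs of the factors were found. The 215 macrophage-like cells of the 3-week hemizygotes had 0 to 4 UMIs of each. A level of 824 CPM for Isl1 in fibroblast-like cells rested on 37 UMIs in 1 cell of mouse #9, out of 39 in 92 cells. Phox2a had 6 UMIs in 6 myofibroblast-like cells of 3 mice, which gave 103 CPM ± 164 over 7 mice with a median of 0. The estimated share of free RNA in these cells was 19.8% to 100% per mouse, and its part in this level was not tested. NKT-like cells were too few to be tested.

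With every cell thinned to 500 UMIs, Isl1 was detected in 36.9% ± 5.20 (SD, n = 10 mice) of neuroblast-like cells, Phox2a in 13.4% ± 2.36, Sox11 in 12.1% ± 4.32, Hand2 in 7.46% ± 1.90, Gata2 in 7.18% ± 1.55, Gata3 in 5.40% ± 2.13, Insm1 in 4.80% ± 4.75 and Tbx2 in 1.66% ± 0.78. In ganglion-like cells Hand2 (24.5% ± 10.4) and Phox2a (21.0% ± 5.83) were found most often, and Isl1 in 13.1% ± 5.46. Schwann-like cells, which should lack the factors, gave 0.90% for Isl1, 0.49% for Phox2a and 1.48% for Hand2. The share for Tbx2 in neuroblast-like cells (1.66%) was near that in Schwann-like cells (1.53%), so that it does not set these classes apart. Estimated free RNA had a median of 5.77% of UMIs in neuroblast-like and 15.0% in Schwann-like cells. Its part in these Tbx2 shares was not tested. Without thinning, the shares in neuroblast-like cells ran from 8.74% (Tbx2) to 65.2% (Isl1), at median depths of 2553 UMIs in neuroblast-like, 1153 in ganglion-like and 986.5 in Schwann-like cells.

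More than 1 factor was found in many cells of both sympathetic classes. At 1000 UMIs per cell, a neuroblast-like cell showed 1.51 ± 0.25 of the 8 factors on average (SD, n = 10 mice) and a ganglion-like cell 1.52 ± 0.25, against 0.11 in Schwann-like cells (n = 9). At least 2 factors were found in 47.0% ± 10.5 of the cells in the neuroblast-like class, in 48.5% ± 10.3 of those in the ganglion-like class and in 0.95% of Schwann-like cells. In the 3047 neuroblast-like cells of this depth, no cell showed more than 6 factors, and 2 cells showed 6. At 2000 UMIs the mean in neuroblast-like cells was 2.52, so that these numbers move with depth. The share of cells with at least 2 factors that the single shares alone would give was not computed. These numbers therefore do not show that the factors occur together more often than their shares imply.

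Among pairs of factors, Phox2a and Gata2 were found together in 123 neuroblast-like cells, where 94.5 would be found if they were independent within each mouse, and Gata3 with Tbx2 in 20 against 11.2. Phox2a with Sox11 occurred in 157 cells against 173, and Phox2a with Insm1 in 65 against 72.7. The pairs found in the most cells lay near independence, Isl1 with Sox11 at 443 against 445 and Isl1 with Phox2a at 414 against 421. At 2000 UMIs, Phox2a with Gata2 occurred in 254 cells against 226, but Gata3 with Tbx2 in 38 against 40.0. Phox2a with Sox11 (329 against 371) and with Insm1 (139 against 153) stayed below independence at that depth. These counts are sparse and no test was made of them.

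**Figure D3:**
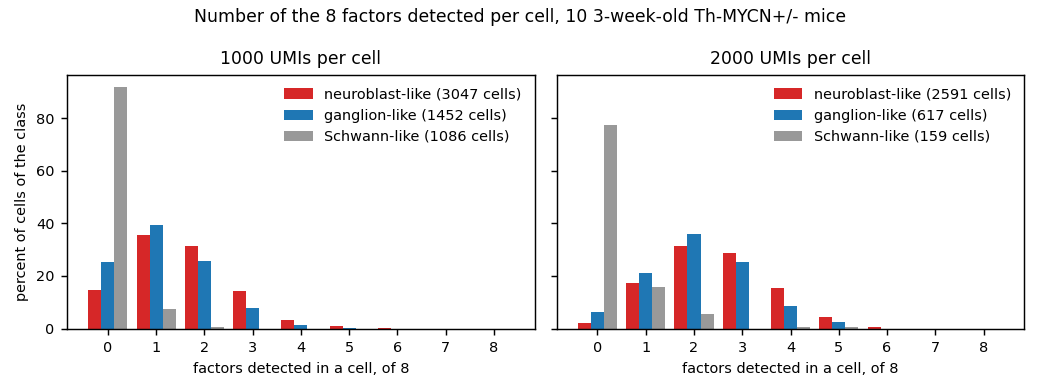
Number of the 8 factors detected per cell (share of cells in %) after thinning to 1000 UMIs (left) and 2000 UMIs (right), for neuroblast-like, ganglion-like and Schwann-like cells of the 3-week hemizygotes. At 1000 UMIs, of the 3047 neuroblast-like cells 14.6% showed none of the factors and 35.5% showed 1, against 92.1% and 7.46% of the 1086 Schwann-like cells.

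Neuroblasts differ in how far they divide and in how far they resemble neurons, so neuroblast-like cells were ordered within each mouse. For the first comparison, the upper and lower terciles by UMIs of 97 cell cycle genes (none of them a factor) were summed per mouse in 9 mice, 3023 cells of at least 1000 UMIs having been ranked at 1000 UMIs. Mouse #2 had too few such cells. Of all 5621 genes tested, 34.5% were called (17% higher and 17.5% lower in cycling cells), and of the 8 factors 4 were higher and 3 lower.

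Phox2a fell furthest. Cells rich in cell cycle UMIs had 97.1 to 290 CPM (mean 181), and cells poor in them 364 to 995 CPM (mean 629). The ranges did not overlap and Phox2a was lower in cycling cells of 9 of 9 mice, with a log2 fold change of −1.83 (SE 0.13, edgeR adjusted p = 2.2e-08). Gata2 (119 against 229 CPM, −0.88, SE 0.14, edgeR adjusted p = 1.4e-04) and Hand2 (130 against 230 CPM, −0.78, SE 0.16, edgeR adjusted p = 0.0011) were lower in cycling cells of all 9 mice as well. Gata3 had a log2 fold change of −0.27 (SE 0.13) that did not pass the test (edgeR adjusted p = 0.13).

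Insm1 and Sox11 had the opposite direction in 9 of 9 mice. Sox11 had 296 to 411 CPM in cycling cells and 134 to 280 CPM in the others, ranges that did not overlap, with a log2 fold change of 0.83 (SE 0.11, edgeR adjusted p = 3.1e-05). Insm1 had 163 CPM against 70.0 CPM, with a log2 fold change of 1.27 (SE 0.20, edgeR adjusted p = 1.1e-04). Isl1 was higher by 0.34 on the log2 scale (1097 against 894 CPM, SE 0.08, edgeR adjusted p = 0.0021) in 8 of 9 mice. Tbx2 was called as well (0.66, SE 0.24, edgeR adjusted p = 0.042), but the call was lost without any 1 of 6 mice (#1, #3, #4, #8, #9 or #10), DESeq2 giving an adjusted p of 0.11.

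Cells poor in cell cycle UMIs also carried more ganglion markers (8280 against 2207 CPM summed over 19 markers) and more Schwann markers (1070 against 332 CPM over 15). Transgene levels were 310 CPM in cycling cells and 358 CPM in the others. The comparison was therefore repeated among the cells below the median of ganglion marker UMIs, a choice made after seeing the data. Phox2a (−1.61, edgeR adjusted p = 7.8e-05), Insm1 (0.79, adjusted p = 0.012), Sox11 (0.45, adjusted p = 0.015) and Isl1 (0.24, adjusted p = 0.037) remained called. Hand2 (−0.20, edgeR adjusted p = 0.33) and Gata2 (−0.43, adjusted p = 0.060) did not.

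When cells were ranked by S phase genes only, Phox2a had −0.69 (edgeR adjusted p = 0.0014), and by G2/M genes only −1.87 (adjusted p = 8.7e-09). With S phase genes only, the calls for Sox11 (0.28, edgeR adjusted p = 0.054) and Isl1 (0.23, adjusted p = 0.12) were lost, and with G2/M genes only that for Isl1 (0.26, adjusted p = 0.053). This ranking too was added after seeing the data.

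**Figure D4:**
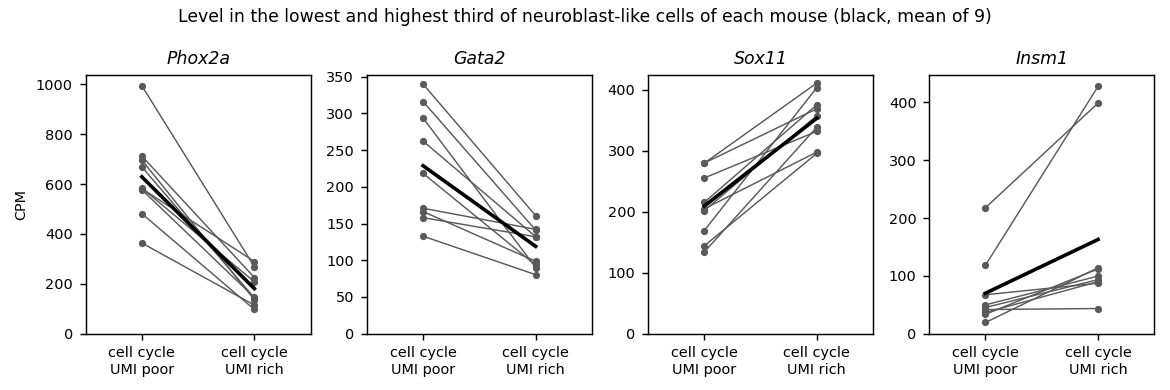
Level of Phox2a, Gata2, Sox11 and Insm1 (CPM, linear axes from 0) in neuroblast-like cells poor and rich in cell cycle UMIs, with 1 grey line per mouse for 9 of the 3-week hemizygotes and a black line for their mean. All 9 grey lines fall toward cycling cells for Phox2a and Gata2 and rise for Sox11 and Insm1.

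For the second comparison the same cells were ranked by UMIs of 19 ganglion markers. Of all genes tested, 16.8% were called (9.69% higher and 7.1% lower in cells rich in these markers), and 4 of the 8 factors were higher and none lower. Gata2 had the greatest difference, with 123 to 282 CPM in cells rich in ganglion markers against 56.8 to 177 CPM in cells poor in them. The ranges overlapped, but the direction was the same in 9 of 9 mice, with a log2 fold change of 0.72 (SE 0.13, edgeR adjusted p = 0.0012).

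Hand2 (212 against 141 CPM, 0.55, SE 0.15, edgeR adjusted p = 0.021), Gata3 (132 against 96.5 CPM, 0.44, SE 0.13, adjusted p = 0.034) and Phox2a (459 against 350.1 CPM, 0.41, SE 0.09, adjusted p = 0.0050) were called too. The call for Hand2 was lost without mouse #4, #5 or #10, that for Gata3 without any 1 of 6 mice (#1, #4, #5, #7, #8 or #9), and that for Phox2a at a thinning to 500 UMIs (0.20, edgeR adjusted p = 0.27) and without the block (0.40, adjusted p = 0.18). Sox11 (−0.28, edgeR adjusted p = 0.072), Insm1 (−0.45, adjusted p = 0.12), Tbx2 (−0.25, adjusted p = 0.51) and Isl1 (−0.12, adjusted p = 0.42) did not pass the test.

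Cells rich in ganglion markers held more Schwann markers (826 against 390 CPM) and fewer cell cycle UMIs (13433 against 18288 CPM). Among the cells below the median of cell cycle UMIs, a choice made after seeing the data, Gata2 (0.72, edgeR adjusted p = 0.0068), Hand2 (0.79, adjusted p = 0.0052) and Phox2a (0.45, adjusted p = 0.013) were higher in cells rich in ganglion markers and Insm1 (−0.87, adjusted p = 0.031) and Sox11 (−0.45, adjusted p = 0.037) lower. Both rankings shared cells: 19.0% to 36.6% of the cells rich in cell cycle UMIs were also rich in ganglion markers.

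**Figure D5:**
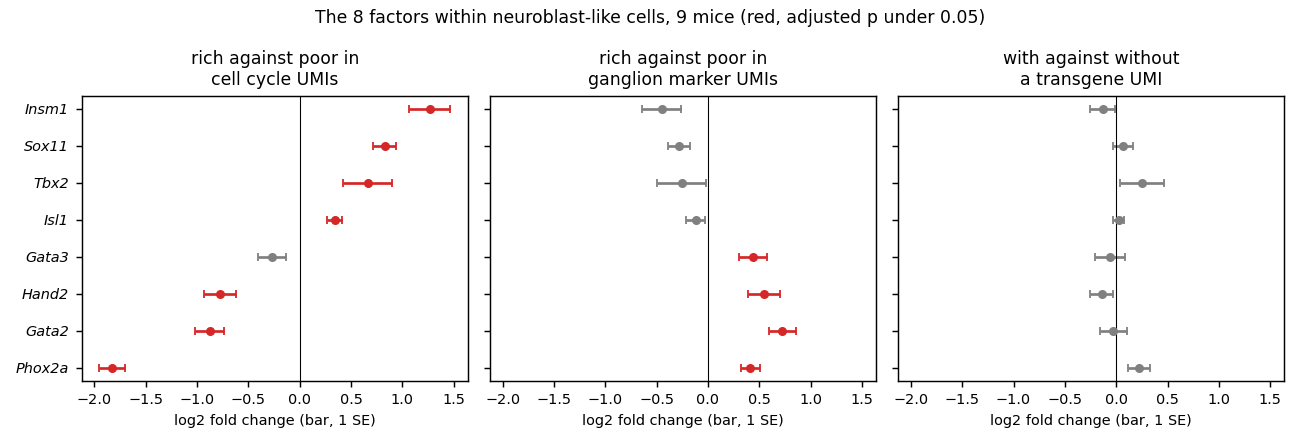
Log2 fold change (points) with 1 SE (bars) for each factor within neuroblast-like cells of 9 3-week hemizygotes, between cells rich and poor in cell cycle UMIs, between cells rich and poor in ganglion markers, and between cells with and without a transgene UMI. Red points have an adjusted p under 0.05, and Phox2a lies at −1.83 in the first comparison, at 0.41 in the second and at 0.22 in the third.

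No factor was called between neuroblast-like cells with and without a detected transgene. In cells with against cells without a UMI of the transgene at 1000 UMIs, log2 fold changes lay between −0.14 (Hand2) and 0.25 (Tbx2), with edgeR adjusted p from 0.52 to 0.99. The background was as low, with 0.307% of 6182 genes called (19 genes, 625 at an unadjusted p under 0.05). At this depth a cell without a UMI may still express the transgene: its level was 662 CPM in the first group and 213 CPM in the second. Phox2a had a log2 fold change of 0.22 (SE 0.11, edgeR adjusted p = 0.52), and a small difference could not be told from none.

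Of the related lists, 5 of 9 partners and inhibitors tested were higher in cycling cells, Lmo4 (1.67, SE 0.20) and Lmo3 (1.10, SE 0.17) among them, and none was lower, against 17% of all genes higher. Of 12 tested adrenergic factors 1 was higher, Zfp536 (0.92, SE 0.26), and 1 was lower, against 17% and 17.5% of all genes. Insm2 followed its paralog Insm1, at 0.74 (SE 0.12, edgeR adjusted p = 1.0e-04).

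The levels also varied over the 4 clusters of neuroblast-like cells, given as a description. Phox2a had 257 CPM, pooled over the 3-week hemizygotes, in a cluster led by mitotic genes such as Aspm, Kif11 and Hmmr, 449 CPM in a shallow cluster (median 497 UMIs per cell) that was also led by cell cycle genes such as Cks2, Pbk and Cdk1, and 597 CPM in one led by Rem2 and the transgene. The lowest level, 206 CPM, was in a cluster of 244 cells led by Cartpt and Nhlh2 and not by cell cycle genes, with 30.9 to 810 CPM over 8 mice. Whether the level of Phox2a over clusters follows their cell cycle genes was not tested. Insm1 had 146, 70.1, 83.5 and 66.6 CPM in these clusters in the same order. In the 3 ganglion-like clusters, Phox2a stood between 430 and 652.5 CPM and Isl1 between 234 and 386 CPM.

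WT and 6-week-old mice were single mice, so that their values are given beside the range of the 10 3-week hemizygotes without a test, with exact Poisson 95% intervals that cover counting error only. In ganglion-like cells of the WT mouse, 6 factors lay inside that range and 2 above it. Isl1 had 598 CPM (510.0 to 696) where the range ended at 469 CPM, and Gata2 had 272 CPM (214 to 341) where it ended at 258. In the 6-week-old mouse all 8 factors lay inside the range in ganglion-like cells, with Hand2 at 608 CPM and Phox2a at 489 CPM.

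Among neuroblast-like cells of the 6-week-old mouse, 7 factors lay inside the range and Gata2 below it, at 48.6 CPM (39.2 to 59.5) where the range began at 93.8 CPM. Gata3, by contrast, was at 99.8 CPM (86.2 to 115) and well inside. Isl1 had 689 CPM (653 to 728), Phox2a 368 CPM, Sox11 258 CPM and the transgene 441 CPM.

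For 44 cells of the WT mouse that fell into neuroblast-like clusters, the markers went against the name. Their ganglion markers summed to 39451 CPM and their neuroblast markers to 2888 CPM, against means of 4535 and 23390 CPM in neuroblast-like cells of the 3-week hemizygotes, and they held no UMI of the transgene, which this mouse lacks. Their Schwann markers were high as well, at 19981.5 CPM. Ganglion-like cells of the WT mouse had 3355 CPM of these, and neuroblast-like cells of the 3-week hemizygotes a mean of 1619 CPM. Phox2a (609 CPM) and Hand2 (499.5 CPM) led in the 44 WT cells, as in ganglion-like cells, before Gata2 (171 CPM) and Isl1 (146 CPM). Sox11 and Gata3 had 24.4 CPM each on 2 UMIs, Tbx2 had 12.2 CPM on 1, and Insm1 had 0 of 82076 UMIs, which allows up to 36.6 CPM. These cells are therefore not used as WT neuroblasts.

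The genes most alike to each factor over 53 sums of a class in a mouse were taken from 3466 genes by Pearson's r of log2(CPM + 10), as a description. The sums of a class share its cell type and those of a mouse its library, and no test was made. Phox2a was most like Rtn1 (r = 0.96), Hand2 like 6330403K07Rik (0.98), Gata2 like Gch1 (0.91), which serves the synthesis of the cofactor of tyrosine hydroxylase, and Gata3 like Rbfox1 (0.96). Isl1 was most like Tfap2b (0.95), another factor of the sympathetic lineage, and Tfap2b was second for Gata3. Insm1 was most like the transgene (0.93), Sox11 like Insm2 (0.89), and Tbx2 had no gene above 0.74 (Ndufs1). Among the factors themselves, Gata3 and Isl1 (0.94) and Phox2a and Hand2 (0.93) were most alike, and Gata2 and Tbx2 least (0.02).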

How the data were processed

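SMG of 12 mice were dissociated and each gave 1 library with the 10x Chromium 3′ kit. The authors aligned the reads with Cell Ranger (3.0.2 in the matrix headers) to an mm10 genome that held human MYCN as well, and deposited unfiltered matrices of raw UMI counts, which the labels and the study's methods describe. No source used here names the annotation release. The count of a gene depends on its annotated 3′ end and on free RNA in the droplets.

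Cells were called by an EmptyDrops test (barcodes up to 100 UMIs as empty droplets, FDR 0.01) and kept with at least 200 genes, at most 10% mitochondrial and at most 60% ribosomal UMIs. Counts were scaled with SCTransform 0.4.2 in Seurat 5.3.0 and clustered at a resolution of 0.5, and clusters were named "-like" from marker lists. Clustering and naming left out the 8 factors, 3 lists of related factors and the transgene. Scrublet called 0.399% of cells, which was taken as not working, and no doublets were removed. UMIs were summed per mouse and class (at least 10 cells) and tested with edgeR 4.0.16 (quasi-likelihood, TMM, filterByExpr, mouse as a block) over the 3-week-old Th-MYCN+/- mice, with Benjamini-Hochberg adjustment over all genes tested and a threshold of 0.05. Simulated counts were tested first: 185 of 185 changed genes were called between neuroblast-like and ganglion-like cells with 10 false calls, and 182 of 182 with 6 for the cell cycle comparison. Changes of a single size were simulated, recovered at median log2 fold changes of 1.51 and 1.48 for raised genes, from the same mean in every mouse. Recovery of smaller changes, such as those of several factors, was not tested. Both sums of a mouse come from 1 library, which is why the mouse was the block. Deviations of paired sums from their group means correlated at −0.0083 to 0.31 (neuroblast-like and ganglion-like), 0.063 to 0.18, 0.040 to 0.21 (each against Schwann-like), 0.098 to 0.46 (cell cycle), 0.10 to 0.49 (ganglion markers) and 0.15 to 0.53 (transgene).

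Depth was 1147771 to 6388765 UMIs per library. Intervals and floors (3 counts) cover counting error only. The free RNA of a sum was estimated from UMIs of markers of other classes and its empty droplets' profile. The factors and lists were chosen with earlier results of these data known. Genes named outside the factors are, for each factor, the 3 most alike in level (the first, and any second named, are printed) and, per list, at most 4 called genes with the greatest change between neuroblast-like and ganglion-like cells. Some genes of the adrenergic circuit are not reported here. Alternatives were DESeq2 1.42.0, totals without TMM, no filter, no block, other cell filters, clusterings and depths, subtraction of free RNA and each mouse left out.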

Additional observations from a re-analysis of the deposited data

Results flagged for a closer look

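In 32 sets of values over mice, 7 held a mouse far from the others, where chance gives about 1 in 20. In neuroblast-like cells, Phox2a was highest in mouse #8 at 587 CPM (others 253 to 416), and Sox11 was lowest in mouse #2 at 65.8 CPM (others 217 to 332). Mouse #2 also had the lowest share of its UMIs in cells. In ganglion-like cells, Hand2 was highest in mouse #6 at 1147 CPM (others 333 to 732), and Gata3 was highest in mouse #5 at 127 CPM (others 41.6 to 80.6). In Schwann-like cells, mouse #6 was highest for both Insm1 at 34.0 CPM (others 0 to 4.54) and Sox11 at 59.4 CPM (others 0 to 17.6). The log2 ratio of neuroblast-like over ganglion-like cells for Gata2 was lowest in mouse #3, at −1.45 (others −0.83 to −0.13).

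For 44 cells of the WT mouse that fell into neuroblast-like clusters but are not used as WT neuroblasts, 3 of these ratios had the opposite sign to all 10 3-week-old Th-MYCN+/- mice, a difference that was not tested. The log2 ratio was 0.31 for Phox2a (−1.49 to −0.02 in the 10 mice), −2.02 for Isl1 (1.09 to 1.84) and −0.41 for Sox11 (1.42 to 3.60). That of Sox11 rests on 2 against 9 UMIs, and the counting intervals behind that of Phox2a overlap (452 to 803 CPM against 413 to 583 CPM), so that neither sign is set beyond counting error. The 44 WT cells carried ganglion markers at 39451 CPM, Schwann markers at 19981.5 CPM and neuroblast markers at 2888 CPM.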

How the results depend on the processing

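Of the values recomputed for single genes and classes, 1063 were unchanged, 41 lost a call, 10 gained one, 8 moved and no call reversed. Unchanged meant the same side of the threshold for a fold change, at most 1.5 times for a count of genes and within the SD for a level. Moved meant a count or level beyond these limits. A change of sign was taken as a reversal only where the main or the recomputed value was called. No filter on low counts raised the genes called to 7939 (from 4520, neuroblast-like against Schwann-like cells), 6659 (from 2430, ganglion-like against Schwann-like cells), 2999 (from 1939, cell cycle), 1535 (from 925, ganglion markers), 277 (from 19, transgene) and 10360 (from 2791, all other classes against Schwann-like cells), more genes being tested. Among the cells below the median of ganglion marker UMIs, an alternative chosen after seeing the data with fewer cells, the cell cycle comparison called 710 genes. Without the replicate block, 476 genes were called for ganglion markers and 1 for the transgene, and the block changed no other count of calls by over 1.5 times. Thinning to 500 UMIs left 10 genes called for the transgene. The mean share of neuroblast-like cells with a UMI, 11.1% over the 8 factors, was 18.9% (SD 3.10) at 1000 UMIs, and the mean number of factors per neuroblast-like cell was 2.52 at 2000 UMIs. Leaving out 1 mouse at a time gave 4827 to 5597 genes (neuroblast-like against ganglion-like), 4139 to 4917 and 2224 to 2906 (each against Schwann-like), 1567 to 1994 (cell cycle), 574 to 1119 (ganglion markers, lowest without mouse #10), 11 to 22 (transgene, 11 without mouse #4 and 12 without #9) and 2569 to 2782 (other classes). The summed level of the 8 factors in neuroblast-like cells was 2183 CPM, and 2280 CPM without mouse #2. Other scalings moved the median log2 fold change of all genes from 0.05 to 0.18 (DESeq2, neuroblast-like against ganglion-like) and from 0.08 to 0.31 (totals without TMM, neuroblast-like against Schwann-like), with no change in the calls for the factors there. The calls for Tbx2 in cycling cells and for Gata3 in cells rich in ganglion markers were those lost most often. Depth limits Insm1 in ganglion-like cells, which had 10 UMIs. The cause of these changes was not tested.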
